A study of Mus musculus with 6 samples.

Results

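The genes described here are 10 interferon effectors: the ring-finger ubiquitin ligases Rnf213, Dtx3l and Trim30a, the PARP family members Parp9 and Parp14, and Ifi44, Samd9l, Rtp4, Xaf1 and Slfn2. They were taken by symbol, are 10 of the 32285 genes in the count matrices, and passed the filter on low counts in every comparison of AML with PBS libraries. They were chosen by their levels in AML against PBS libraries of these data. For that contrast their levels and fold changes are therefore a description, without a test. Differences between cell classes and between cell cycle phases among the control libraries did not enter the choice, and these were tested.

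The cells were host hematopoietic stem and progenitor cells (LSK cells, Lin- cKit+ Sca1+) sorted from lineage-depleted femur and tibia marrow and profiled by droplet single-cell RNA sequencing (10x Genomics Chromium GEM V3). All recipients were female C57BL/6J mice carrying CD45.1, 8 to 12 weeks old, healthy and without conditioning. The AML group was injected with 1000000 C1498 cells (CD45.2), a murine acute myeloid leukemia line, and the control group with PBS, and both were sacrificed at day 21. Each group has 3 libraries, named here PBS replicates 1 to 3 and AML replicates 1 to 3. Since CD45.1 marks the host, the sort was meant to leave out the leukemia cells. The labels do not say how many mice stand behind a library, so p-values measure only the spread between these libraries.

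The authors' cell table keeps 16822 cells and assigns each to a class (HSC, MPP-2, MPP-3 or MPP-4, from module scores), a phase and 1 of 9 clusters. It holds 6838, 934 and 4398 cells of the PBS libraries and 693 and 3959 cells of AML replicates 1 and 3. AML replicate 2 has 0 cells in it, so the comparisons set 3 PBS against 2 AML libraries. AML replicate 1 stood apart, with a median of 2393 UMIs per cell against 4015 to 9586 in the others and with 14.7% of its cells in G1 against 49.00 to 58.2%. The sort markers Kit, Ly6a (Sca-1), Cd34 and Ptprc were present in every library, and Ly6a, which interferon also induces, lay at 101, 199 and 101 CPM in PBS and 116 and 203 CPM in AML. CPM are UMIs of a gene per 1000000 UMIs of a library. Marker levels are plain CPM, and levels given with a fit are also scaled between libraries (TMM).

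Some cell barcodes occur in more than 1 library. Among the kept cells of the 5 libraries, a pair of libraries shared 0 to 12 barcodes. Over all deposited barcodes the pairs without AML replicate 2 shared 138 to 631, and AML replicate 2 shared 624 to 2472 with each other library. Of the 934 kept cells of PBS replicate 2, 450 have a barcode that another of the 5 libraries also lists, against 11 to 56 cells in the other 4. With AML replicate 2 counted as well, these are all 934 cells of PBS replicate 2 and 258 to 1854 cells of the others. Results without such cells, an alternative chosen after seeing the data, are given beside the comparisons.

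Interferons act through surface receptors that switch on a large set of interferon-stimulated genes, first known for holding back viruses. In hematopoietic stem cells the same signal is known to alter quiescence, cycling and lineage output. The effectors described here sit downstream of that signal and mostly act on other proteins, by attaching ubiquitin or ADP-ribose, by blocking translation, or by lowering the threshold for cell death.

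Of these genes, 3 lie within a short stretch of chromosome 16 (GRCm38). Parp14 spans chr16:35832874-35871544 on the minus strand, Dtx3l chr16:35926511-35939151 on the minus strand and Parp9 chr16:35938470-35972605 on the plus strand. Dtx3l and Parp9 run in opposite directions and overlap at their 5′ ends. Rtp4, on the same chromosome at chr16:23520291-23614222, overlaps Masp1 on the other strand and the predicted gene Gm45338 on its own. Parp14 likewise overlaps Gm49730 on its own strand. Rnf213 (chr11:119393100-119487418), Xaf1 (chr11:72301629-72313733) and Slfn2 (chr11:83065112-83070678) are on the plus strand of chromosome 11, and Rnf213 overlaps A930037H05Rik on the other strand. Trim30a (chr7:104409025-104465193), Ifi44 (chr3:151730922-151749960) and Samd9l (chr6:3372257-3399572) are on the minus strand. The sources used here do not give how overlapping and antisense genes were counted. Values of Dtx3l, Parp9, Parp14, Rtp4 and Rnf213, and of Trim30a, Slfn2 and Ifi44, which have close relatives in the genome, may thus include shared reads.

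Promoter sequence is shown because response elements near the start site are how interferon is known to switch such genes on. RefSeq promoters (GRCm38.p6, 250 bases before to 50 after a start) were found for 7 of the 10 genes, and Parp9, Parp14 and Rtp4 were not matched. Trim30a has 2 entries, and the RefSeq start of Rnf213 used here lies outside the interval given above. The core of the interferon-stimulated response element, GAAA, any 2 bases and GAAA, or TTTC, any 2 bases and TTTC on the other strand, was found in 1 of these 7 genes, Trim30a. Counting a gene once if any of its promoters of that length holds the core, it was in 3.99% of 27025 genes, in 14 of 31 other interferon-stimulated genes listed here and in 12 of 38 relatives of the effector genes. The gamma-activated site TTCNNNGAA, which reads the same on both strands, was in 0 of the 7 and in 9.55% of all genes. A match is a description of letters and not of binding, and its absence says only that these letters are not in this window. The first line below gives the Trim30a match in capitals, which ends 26 bases before the start site (chr7:104465205-104465244, minus strand). The other lines give, in lower case and 5′ to 3′, the stretch at the same distance from the start of Rnf213 (chr11:119390048-119390087, plus), Dtx3l (chr16:35939039-35939078, minus), Ifi44 (chr3:151749922-151749961, minus) and Slfn2 (chr11:83065061-83065100, plus).
Trim30a: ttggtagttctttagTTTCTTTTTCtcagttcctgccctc
Rnf213: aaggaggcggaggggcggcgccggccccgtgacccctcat
Dtx3l: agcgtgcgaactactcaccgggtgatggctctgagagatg
Ifi44: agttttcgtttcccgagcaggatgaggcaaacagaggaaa
Slfn2: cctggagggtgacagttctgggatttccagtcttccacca

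The first comparison set all LSK cells of AML mice beside those of PBS mice. Both AML libraries lay above all 3 PBS libraries for 8 of the 10 genes, below them for Samd9l, and among them for Rtp4. Over all 14364 genes tested, 14.6% lay above in this way and 17.4% below. The fitted log2 fold change was positive for 8 genes, with a median of 0.52 over the 10 and of -0.03 over all genes. With edgeR, 1 of the 10 was called higher (Slfn2), as was 0.153% of all genes, and 0 were called lower, as was 0.00696% of all genes. Because this contrast chose the genes, nothing is read from these counts. Without cells whose barcode another of the 5 libraries lists, 8 fold changes were again positive, from 0.31 for Xaf1 to 1.30 for Slfn2. Rnf213 was then at 0.93, Trim30a at 0.97, Samd9l at -0.24 and Rtp4 at -0.12. Leaving out barcodes listed by any of the other 5 libraries removed PBS replicate 2 and gave 1.07, 1.21, -0.05 and 0.08 for these 4.

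Among the ligases, Rnf213, a very large ATPase and ubiquitin ligase that acts on intracellular bacteria and lipid droplets, was at 30.8, 30.8 and 42.2 CPM in PBS replicates 1 to 3. In AML replicates 1 and 3 it was at 74.8 and 62.2 CPM, with a log2 fold change of 0.97 ± 0.230 (SE). No PBS library reached the lower AML value. Trim30a, which restrains NF-kB signaling, was at 55.5, 45.8 and 49.9 CPM in PBS and 140.4 and 71.4 CPM in AML (log2 1.04 ± 0.271). AML replicate 1 carried much of that difference, and without it the value was 0.51. Dtx3l, the partner ligase of Parp9, was at 28.2, 25.4 and 24.7 CPM in PBS and 42.8 and 33.3 CPM in AML (log2 0.51 ± 0.218). All 3 ligases were thus higher in both AML libraries, with AML replicate 1 the higher of the pair.

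The PARP members had smaller fold changes than Rnf213 and Trim30a. Parp9, which joins Dtx3l in 1 complex and binds ADP-ribose, was at 21.3, 24.1 and 21.1 CPM in PBS and 30.5 and 28.3 CPM in AML (log2 0.40 ± 0.211). Parp14, an enzyme that adds single ADP-ribose units, was at 20.2, 20.3 and 25.7 CPM in PBS and 30.97 and 32.7 CPM in AML (log2 0.53 ± 0.217). For both genes the AML libraries were close to each other and above the highest PBS library.

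The other effectors divided. Slfn2, a Schlafen protein known to keep T cells quiescent, was the lowest counted and had the largest log2 fold change of the 10. It was at 6.32, 4.70 and 5.84 CPM in PBS and 18.1 and 13.4 CPM in AML (log2 1.41 ± 0.254), on 218, 48 and 123 UMIs against 35 and 379 UMIs. Ifi44, an interferon-induced cytoplasmic protein, was at 25.4, 24.3 and 23.4 CPM in PBS and 29.9 and 40.6 CPM in AML (log2 0.57 ± 0.216). Xaf1, which opposes the caspase inhibitor XIAP, was at 79.2, 73.3 and 75.7 CPM and 86.7 and 102 CPM (log2 0.32 ± 0.217). For these 3 genes the groups did not overlap. Without AML replicate 3 the values of Ifi44 and Xaf1 were 0.30 and 0.19. Samd9l, a growth-restraining gene whose inherited variants cause marrow failure, was at 18.6, 20.6 and 18.2 CPM in PBS and 17.03 and 17.5 CPM in AML (log2 -0.14 ± 0.216). Its 2 AML values lay just under the PBS range after TMM scaling, and within it on plain CPM (16.96 and 17.9 CPM in AML against 16.8 to 20.3 CPM in PBS). Rtp4, a chaperone of receptors with antiviral activity, was at 92.03, 114 and 79.8 CPM in PBS and 77.9 and 109.6 CPM in AML (log2 -0.01 ± 0.248), with overlapping groups. The sign of Rtp4 followed the AML library kept, with -0.29 without AML replicate 3 and 0.22 without AML replicate 1.

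**Figure D1:**
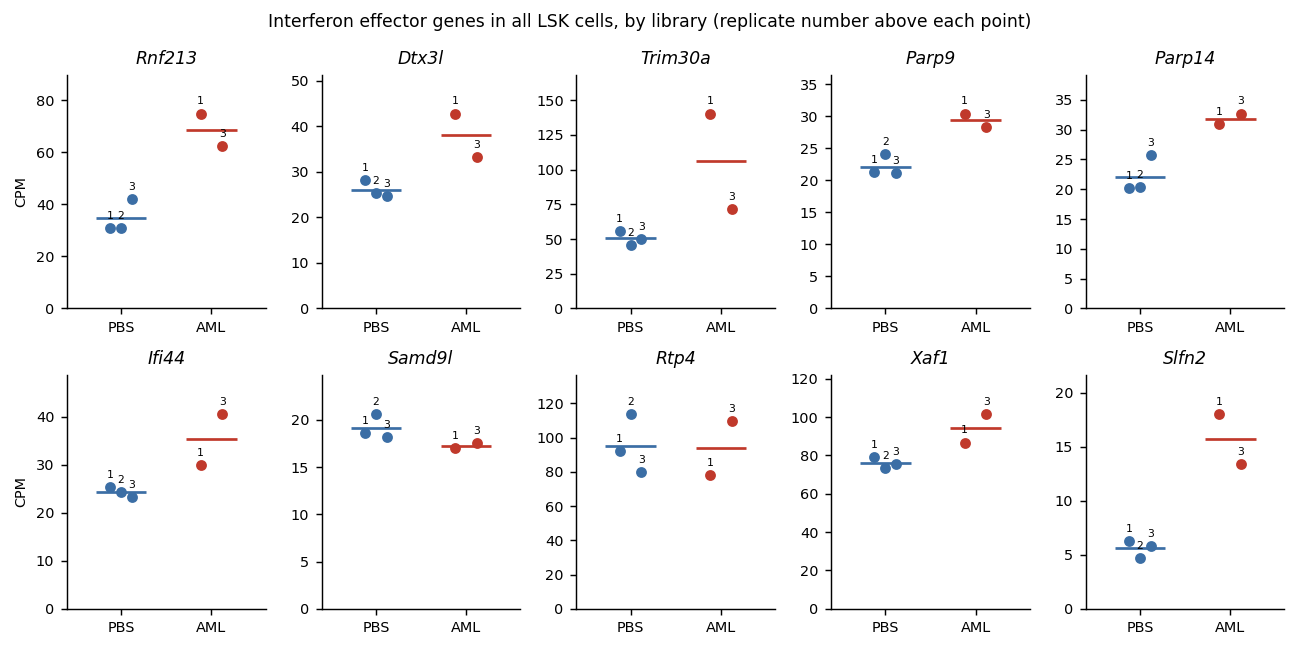
Level of each interferon effector gene in all kept LSK cells, in CPM of the TMM-normalized library on a linear axis from 0, 1 panel per gene. Points are libraries with their replicate number, and the line is the group mean. Both AML libraries sit above every PBS library in 8 panels, below in the Samd9l panel and among them in the Rtp4 panel.

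Several measures moved with the group beside these genes. HSC-class cells were 20.5%, 23.9% and 21.9% of PBS replicates 1 to 3 and 3.32% and 13.7% of AML replicates 1 and 3. MPP-3 cells were 11.6%, 4.39% and 9.60% in PBS and 32.9% and 22.3% in AML. The shares of MPP-2 and MPP-4 overlapped between the groups. The 4 monocyte and macrophage markers summed to 9.74 to 13.7 CPM in PBS and 20.6 and 34.4 CPM in AML, with 3 of 4 markers above all PBS libraries. Of the 4, C1qa had 0 UMIs in AML replicate 1 and was at 3.44 CPM in AML replicate 3 and 3.18 to 4.42 CPM in PBS. The 5 MPP-3 markers summed to 781 to 1332 CPM in PBS and 1817 and 1815 CPM in AML (4 of 5 above). For the 8 HSC markers the sums were 409.6 to 451 CPM in PBS and 317 and 316 CPM in AML (6 of 8 below). Mitochondrial genes held 0.910 to 1.19% of the UMIs of PBS libraries, against 0.706% and 0.852% for AML. The part of these measures in the differences above was not tested. In G1 cells alone, an alternative chosen after seeing the data, the log2 fold changes were 1.02 for Rnf213, 0.66 for Trim30a, 1.18 for Slfn2 and 0.73 for Ifi44. Parp9 was at 0.71 there, Parp14 at 0.59, Xaf1 at 0.45 and Dtx3l at 0.44. Samd9l (0.02) and Rtp4 (0.03) had the opposite sign to all cells.

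The same contrast was then described within each class. As a check of the labels, 8 of 8 HSC markers, 5 of 5 for MPP-3 and 4 of 5 for MPP-4 peaked in the class they mark, but only 3 of 5 for MPP-2. In addition, 43.9% of cells had their highest module score within 0.05 of the next. The fold change was positive for all 10 effector genes in the HSC class and in MPP-4, for 9 in MPP-2 and for 8 in MPP-3. Both AML libraries lay above all PBS libraries for 7 genes in the HSC class (11% of all genes there), for 7 in MPP-4 (13.2%) and in MPP-3 (12%), and for 6 in MPP-2 (14.1%). Calls were 2 in the HSC class (Rnf213 and Ifi44; 0.131% of all genes called higher), and 0 in MPP-4 (0.0325%), MPP-3 (0.0194%) and MPP-2 (0.0399%). None of the 10 was called lower in any class, where 0.0469% of all genes were so called among HSC, 0.0291% among MPP-3 and 0% among the rest. Again nothing is read from these counts.

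Rnf213, Dtx3l, Trim30a and Xaf1 were above the PBS range in all 4 classes. Rnf213 was at 41.2, 37.9 and 55.98 CPM in the HSC-class cells of PBS mice and 108 and 108 CPM in those of AML mice (log2 1.25 ± 0.267). In MPP-4 it was at 39.1, 42.1 and 52.9 CPM against 96.9 and 82.2 CPM (log2 0.96 ± 0.234), and the MPP-2 and MPP-3 values were 0.91 ± 0.259 and 1.31 ± 0.339. The groups did not overlap in any class. Xaf1 in MPP-4 was at 98.4, 90.6 and 92.4 CPM in PBS and 143 and 134 CPM in AML (log2 0.55 ± 0.226).

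Ifi44 had its highest fold change in the HSC class, where PBS libraries were at 48.01, 51.8 and 40.9 CPM and AML libraries at 81.1 and 99.8 CPM (log2 1.05 ± 0.268). In MPP-4 the groups met, at 35.04, 32.3 and 34.2 CPM and 34.98 and 62.7 CPM (log2 0.70 ± 0.239, and 0.03 without AML replicate 3). Trim30a in MPP-3 was at 46.2, 30.9 and 37.96 CPM in PBS and 170.2 and 53.5 CPM in AML (log2 1.41 ± 0.387). The AML pair there lay further apart than the lower AML library lay from PBS, and without AML replicate 1 the value was 0.43. Slfn2 was highest in fold in MPP-3, from 5.53, 8.84 and 4.35 CPM to 27.1 and 17.5 CPM (log2 1.91 ± 0.386). Of the MPP-3 cells, cluster 4 held 13.9%, 24.4% and 21.3% in PBS and 25.9% and 33.3% in AML. Within that cluster Slfn2 averaged 8.51 plain CPM in PBS and 45.4 in AML, and the part of the cluster shares in the MPP-3 values was not tested. In the HSC class its groups overlapped (20.3, 11.4 and 14.8 CPM in PBS, 13.5 and 28.2 CPM in AML).

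Parp14 in MPP-4 was at 26.9, 24.8 and 32.1 CPM in PBS and 48.4 and 48.7 CPM in AML (log2 0.80 ± 0.236), and Parp9 at 26.6, 28.3 and 27.3 CPM and 45.7 and 38.2 CPM (log2 0.55 ± 0.238). Both groups were tight and apart in that class. Rtp4, which overlapped over all cells, was above the PBS range in the HSC class alone, at 123, 143 and 105 CPM in PBS and 176 and 198 CPM in AML (log2 0.64 ± 0.276). Samd9l had the lowest fold of the 10 in the HSC class (0.18 ± 0.299), MPP-2 (-0.13 ± 0.260) and MPP-3 (-0.42 ± 0.421), with groups that overlapped in all but MPP-2. Without AML replicate 3 the MPP-3 value of Samd9l was -1.43. Its MPP-4 value, 0.34 ± 0.284, was 1.01 without AML replicate 3 and 0.08 without AML replicate 1. Without cells of shared barcodes Rtp4 in MPP-4 went from 0.04 to -0.07 and the other class values kept their sign, Ifi44 in the HSC class at 1.05 and Rnf213 there at 1.24.

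The HSC-class values of AML replicate 1 rest on 23 cells and on 1 to 13 UMIs per gene, among them 1 UMI each for Parp9 and Slfn2. Without AML replicate 3, which leaves that library as the only AML sample, Parp9 in the HSC class was at -1.07, Samd9l at -0.35 and Slfn2 at -0.29, all with the opposite sign. Rnf213 was at 1.22 and Ifi44 at 0.76. Without AML replicate 1 they were at 1.25 and 1.10.

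**Figure D2:**
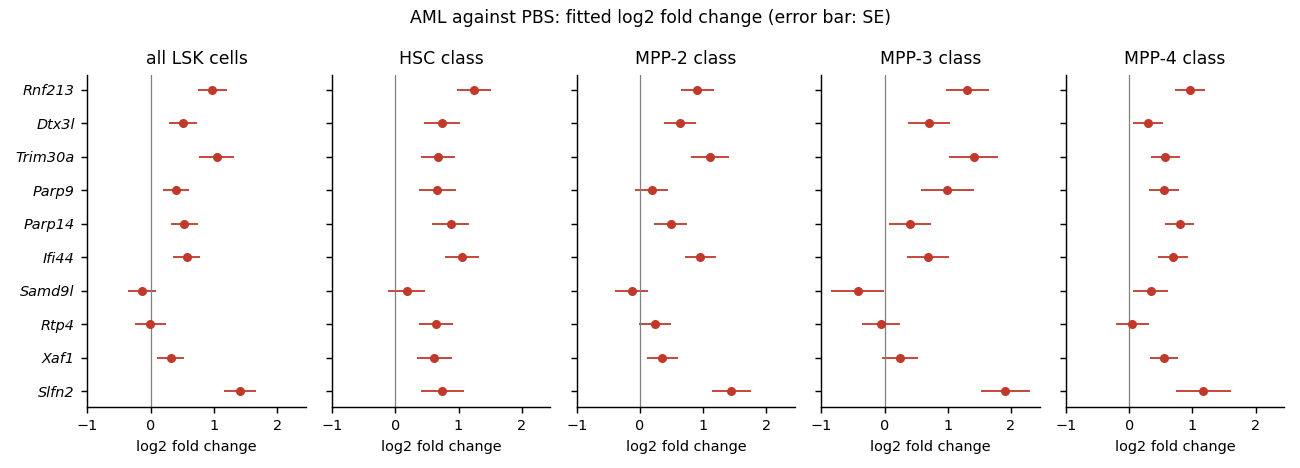
Fitted log2 fold change of AML over PBS for each effector gene, in all LSK cells and in each class. Points are edgeR estimates from 3 PBS and 2 AML libraries, bars are SE, and the vertical line marks no difference. Rnf213 lies between 0.91 and 1.31 in the 4 classes, while Samd9l lies between -0.42 and 0.34.

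Whether the AML difference itself varied between classes was fitted in 1 model over all library-by-class sums. It called 0.872% of 12734 genes and 0 of the 10 effector genes. As the contrast that chose the genes enters this fit, its values for them are given without a test and nothing is read from the count. For Rtp4 the AML difference was lower in MPP-3 than in the HSC class by 0.85 ± 0.198 on the log2 scale. For Slfn2 it was higher in MPP-3 by 1.12 ± 0.370.

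For context, 37 other interferon-stimulated genes and 44 relatives of the effector genes (PARP, Deltex, Schlafen, TRIM and other families) were followed in the same fits. These lists were also chosen with earlier results of these data known, so their AML counts and p-values are no independent test. Over all LSK cells, edgeR called 0 of 37 and 0 of 36 tested, with 9 and 7 at an unadjusted p under 0.05, and DESeq2 called 2 of the 37. The share of all genes at an unadjusted p under 0.05 was not computed, so nothing is read from such counts. Of the 37, 29 had a positive fold change, with a median of 0.27. In the HSC class 7 of 37 were called higher and 0 of 35 relatives, against 0.131% of all genes. Of these relatives 8 had an unadjusted p under 0.05. Ifit3, an RNA-binding antiviral protein, rose from 7.63, 11.4 and 10.6 CPM to 40.6 and 45.5 CPM (log2 2.24 ± 0.334, adjusted p 3.71e-08). Oas2, a sensor of double-stranded RNA, rose by 1.95 ± 0.414 (adjusted p 0.00271), Ifi27l2a by 1.22 ± 0.275 (0.00827) and Ifit1 by 1.26 ± 0.299 (0.0184). Irf7 and Isg15 were also called there (adjusted p 0.00271 and 0.0236), Irf7 with overlapping groups. This count rests on few libraries and on the tool. It was 0 without AML replicate 3, 2 without AML replicate 1, 2 without PBS replicate 1, 4 without PBS replicate 3, 5 without cells of shared barcodes and 0 with DESeq2.

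In MPP-2 and MPP-3 edgeR called 0 of 36 and 0 of 35 other interferon-stimulated genes, with 11 and 4 at an unadjusted p under 0.05, and DESeq2 called 2 in each. In MPP-4 edgeR called 1 of 37, Ifit3, against 0.0325% of all genes. Ifit3 was there at 6.09, 9.86 and 5.45 CPM in PBS and 5.38 and 29.8 CPM in AML (log2 1.84 ± 0.335, adjusted p 0.0293). AML replicate 3 alone was high there, and the call was absent without PBS replicate 1 or PBS replicate 3, and without cells of shared barcodes. Parp1, the nuclear DNA repair member of the PARP family and no interferon gene, was at 70.7, 49.7 and 70.6 CPM in PBS and 107 and 73.6 CPM in AML over all cells (log2 0.49 ± 0.251, adjusted p 0.511).

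Which classes of normal LSK cells carry these genes was asked in the 3 PBS libraries alone. All 10 differed between classes in edgeR's F test, as did 60.7% of 11793 genes. Against the HSC class, 9 of 10 were lower in MPP-2 (25.5% of all genes) and 10 of 10 in MPP-3 (15.7%). In MPP-4, 3 of 10 were lower (13.4%) and 0 were higher (14.7%). The median log2 difference was -0.46 for MPP-2 (all genes -0.04), -0.66 for MPP-3 (all genes -0.01) and -0.04 for MPP-4 (all genes 0.01). Of the other interferon-stimulated genes 22 of 37 were lower and 3 higher in MPP-2, 13 lower and 4 higher in MPP-3, and 10 lower and 6 higher in MPP-4. Of the relatives 24 of 36 were lower and 5 higher in MPP-2, 17 lower and 3 higher in MPP-3, and 6 lower and 3 higher in MPP-4. The lists were not compared with each other by a test. After cells were thinned to 2000 UMIs, 6 of the 10 differences between MPP-3 and HSC did not pass. Cluster 6 held 6.66%, 29.3% and 9.48% of the MPP-3 cells of PBS replicates 1 to 3. In that cluster Rnf213 averaged 5.24 and Rtp4 6.34 plain CPM in PBS, and 9 of the 10 genes had their lowest cluster mean. No class fit left cluster 6 out, and its part in the MPP-3 differences was not tested. Over 11 alternatives (other tools and settings, left-out libraries and cells), the 9 differences called in MPP-2 passed in 8 to 11. Of those in MPP-3, Ifi44 and Rtp4 passed in all 11, Trim30a in only 4 (from -0.66 to -0.08) and the other 7 in 7 to 9. The MPP-3 differences of Trim30a and Xaf1 did not pass with 1 library left out, at -0.26 and -0.31 for Trim30a without PBS replicates 2 and 3 and -0.34 for Xaf1 without PBS replicate 1. Without cells of shared barcodes, which took PBS replicate 2 out of MPP-3, all 10 again differed in the F test. The MPP-3 difference of Trim30a (-0.23) and the MPP-4 difference of Ifi44 (-0.22) then did not pass, and Rtp4 was called higher in MPP-4 (0.24).

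Ifi44 had one of the steepest profiles. It was at 39.7, 42.9 and 33.1 CPM in the HSC class of PBS replicates 1 to 3 and at 31.6, 29.2 and 30.2 CPM in MPP-4. In MPP-2 it was at 11.7, 10.5 and 13.7 CPM and in MPP-3 at 16.5, 9.60 and 14.8 CPM. HSC and MPP-4 cells were high and MPP-2 and MPP-3 cells low in every library. Against the HSC class the log2 difference was -1.64 ± 0.120 for MPP-2 (adjusted p 6.14e-11) and -1.31 ± 0.158 for MPP-3 (5.54e-07). For MPP-4 it was -0.31 ± 0.103 (0.0263), which passed in only 2 of 11 alternatives, with library size only and without PBS replicate 3. It was -0.26 and -0.26 without PBS replicates 1 and 2, and -0.06 after thinning.

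Slfn2 had the largest difference between the HSC class and MPP-4. It was at 16.8, 9.42 and 11.97 CPM in the former and at 2.30, 2.90 and 3.97 CPM in the latter, a log2 difference of -2.24 ± 0.231 (adjusted p 5.89e-08). Without PBS replicate 1 that difference was -1.58. In MPP-2 it was at 4.95, 3.59 and 4.39 CPM (-1.60 ± 0.212, adjusted p 9.35e-07). In MPP-3 it was at 6.22, 9.60 and 4.94 CPM (-1.23 ± 0.275, adjusted p 0.00100), which without PBS replicate 1 was -0.96 and did not pass. Samd9l fell from 27.1, 31.4 and 25.5 CPM in the HSC class to 17.2, 21.7 and 18.5 CPM in MPP-4 (-0.57 ± 0.127, adjusted p 0.00131) and to 14.8, 15.4 and 13.97 CPM in MPP-2 (-0.90 ± 0.131, adjusted p 3.83e-06). Without PBS replicate 1 the MPP-4 difference of Samd9l was -0.45 and did not pass. These 2 genes and Ifi44 were the effectors called lower in MPP-4 than in the HSC class, the call of Ifi44 with the limits given above.

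The difference between MPP-4 and the HSC class did not pass for the other 7. Rtp4 was at 102 ± 16.8 CPM (SD, n = 3) in the HSC class and 114 ± 20.8 CPM in MPP-4 (adjusted p 0.118), and at 73.8 ± 13.96 CPM in MPP-2 and 56.3 ± 9.22 CPM in MPP-3. Its log2 differences from the HSC class were -0.48 ± 0.0758 and -0.68 ± 0.0986 in the last 2 (adjusted p 1.02e-05 and 7.20e-06). Rnf213 was at 36.9 ± 7.37 CPM in the HSC class, 40.1 ± 6.02 CPM in MPP-4, 27.7 ± 7.38 CPM in MPP-2 and 22.4 ± 9.99 CPM in MPP-3. Parp14 was lower by 0.68 ± 0.112 in MPP-2 (log2, adjusted p 1.86e-05), and Dtx3l, Trim30a and Xaf1 by 0.44, 0.44 and 0.30. Parp9 was the exception in MPP-2, at 17.5, 22.3 and 19.3 CPM against 20.96, 26.2 and 22.4 CPM in the HSC class (-0.23 ± 0.131, adjusted p 0.141). In MPP-3 it was at 16.98, 7.20 and 9.89 CPM (-0.66 ± 0.186, adjusted p 0.00732). The MPP-3 value of PBS replicate 2 comes from 41 cells. Without PBS replicate 3 the MPP-3 difference of Parp9 was -0.45 and did not pass, and without PBS replicate 1 it was -1.27. Without PBS replicate 1 the MPP-2 differences of Rnf213 (-0.35) and Xaf1 (-0.15) did not pass.

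**Figure D3:**
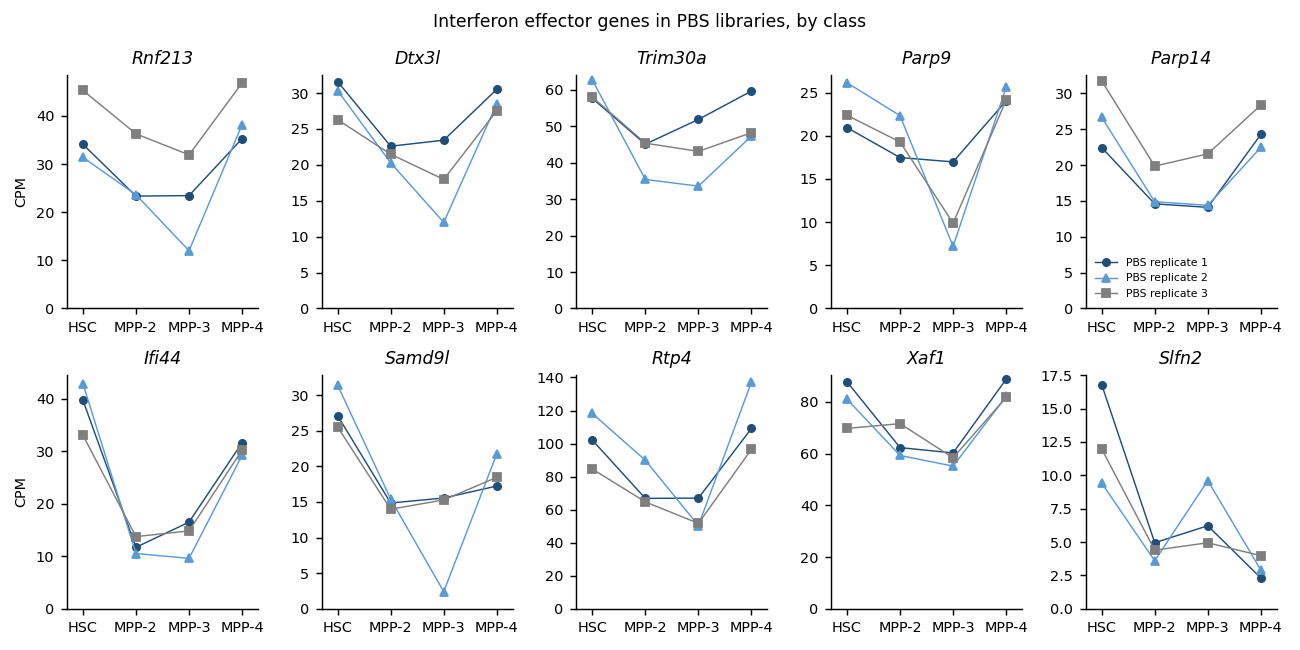
Level of each effector gene by class in the PBS libraries, in CPM on a linear axis from 0. Each line joins the classes of 1 library. Most genes trace a V, high in HSC and MPP-4 and low in MPP-2 and MPP-3, whereas Slfn2 and Samd9l stay low in MPP-4.

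The classes differ in cell cycle. In the PBS libraries 84.1 to 87.9% of HSC-class cells and 71.7 to 75.9% of MPP-4 cells were called G1, against 55.5 to 58.5% in MPP-3 and 6.06 to 12.9% in MPP-2. Among G1 cells alone, 6 of the 10 genes differed between classes (25.4% of 10696 genes), 2 were lower in MPP-2 (1.02%) and 2 in MPP-3 (6.36%). In MPP-4, 2 were lower (10%) and 1 higher (9.43%). Ifi44 was lower in MPP-2 and in MPP-3 (log2 -1.01 and -0.91, adjusted p 0.0180 and 9.09e-04), Xaf1 in MPP-2 (-0.63, 0.0365) and Rtp4 in MPP-3 (-0.45, 0.0105). Slfn2 stayed lower in MPP-4 (-2.21, adjusted p 5.48e-07), as did Samd9l (-0.44, 0.0443), and Rtp4 was higher there (0.28, 0.0114). Rnf213 in G1 cells of MPP-2 was at -0.06 and did not pass (adjusted p 0.932). All 10 differences were negative in MPP-2 and in MPP-3. Among those that did not pass, Parp9 was at -0.83 in MPP-2 (adjusted p 0.181), and in MPP-3 at -0.72 (0.0542), with Rnf213 at -0.57 (0.0580), Parp14 at -0.49 (0.0926) and Dtx3l at -0.43 (0.136). G1 cells of PBS replicate 2 in MPP-2 were too few to enter.

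The phases were also compared directly in the PBS libraries. All 10 genes differed between G1, S and G2M, as did 67.8% of 12262 genes. In S, 10 of 10 were lower than in G1 (26.1% of all genes), and in every library. In G2M, 8 of 10 were lower (24.8%). Of the other interferon-stimulated genes 25 of 37 were lower in S and 20 of 37 in G2M, and of the relatives 24 and 20 of 36. Without cells of shared barcodes all 10 again differed and were lower in S, while the G2M differences of Dtx3l (-0.27) and Trim30a (-0.21) did not pass. Dtx3l in G2M also did not pass without PBS replicate 3 (-0.26), nor did Slfn2 without PBS replicate 1 (-0.70). Over 9 alternatives the differences in S passed in 6 (Slfn2) to 9. Of the 8 called in G2M, Trim30a passed in only 4 and Dtx3l in 5, and the other 6 in 8 or 9.

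Ifi44 led here too. It was at 38.7, 35.3 and 33.4 CPM in G1, 14.96, 15.02 and 13.2 CPM in S and 11.4, 13.5 and 15.02 CPM in G2M, with log2 differences from G1 of -1.33 ± 0.106 and -1.48 ± 0.111 (adjusted p 5.43e-11 and 1.81e-11). Rtp4 was at 111, 141 and 99.8 CPM in G1, 66.2, 71.4 and 48.3 CPM in S and 79.4, 108 and 71.7 CPM in G2M. It was thus lowest in S, with a log2 difference of -0.89 ± 0.0629 (adjusted p 4.71e-12). Parp14 went from 24.6, 26.1 and 31.3 CPM in G1 to 14.2, 12.97 and 17.5 CPM in S (-0.85 ± 0.0985, adjusted p 5.32e-08). Samd9l was lower in S by 0.86 ± 0.110 and Slfn2 by 0.74 ± 0.187 on the log2 scale. The Slfn2 difference did not pass without PBS replicate 1 (-0.64).

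Rnf213 and Trim30a had the smallest differences between S and G1. Rnf213 was at 35.7, 36.6 and 45.5 CPM in G1 and 25.7, 24.9 and 39.5 CPM in S (-0.38 ± 0.0815, adjusted p 3.12e-04), and Trim30a and Dtx3l differed by -0.45 ± 0.0821 and -0.52 ± 0.0910. Parp9 was lower in S (-0.61 ± 0.102, adjusted p 1.32e-05) and in G2M was at 20.9, 25.01 and 22.7 CPM against 24.1, 25.9 and 23.2 CPM in G1 (adjusted p 0.332). Xaf1 also did not pass in G2M (-0.13 ± 0.0634, adjusted p 0.0965).

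**Figure D4:**
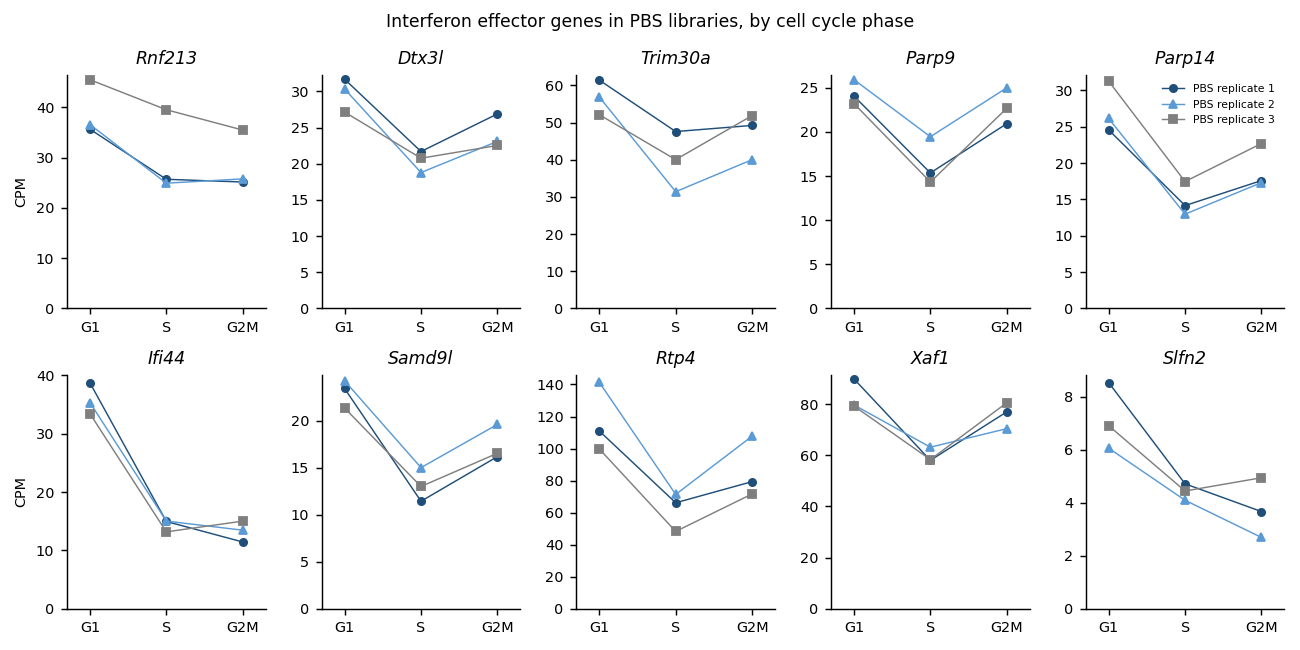
Level of each effector gene by cell cycle phase in the PBS libraries, in CPM on a linear axis from 0. Each line joins the phases of 1 library. S lies below G1 in all 3 libraries and all 10 panels, and Ifi44 stays at 11.4 to 15.02 CPM in G2M while Parp9 and Xaf1 return toward their G1 level.

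Because phase and class go together, S was also set against G1 within each class, an alternative chosen after seeing the data. In MPP-4, 9 of 9 genes tested were lower in S (15.8% of all genes), from -0.81 for Ifi44 to -0.42 for Dtx3l. In the HSC class 4 of 10 were lower (7.92% of all genes), namely Ifi44 (-1.43 ± 0.239, adjusted p 6.60e-08), Rtp4 (-0.68 ± 0.139), Parp9 (-0.87 ± 0.289) and Parp14 (-0.73 ± 0.259). In MPP-2 and MPP-3, where 2 libraries had enough cells, 2 of 10 (6.47%) and 5 of 9 (10.3%) were lower. Ifi44 and Rtp4 were lower in S in all 4 classes.

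The authors' clusters divide the cells more finely, and since they were made from the genes of these cells their levels are given without a test. In the PBS libraries 7 of the 10 genes had their highest mean in cluster 2, of whose cells 80.4% are MPP-4. Rtp4 was there at 148 ± 31.6 plain CPM (SD, n = 3), Xaf1 at 115 ± 10.2, Ifi44 at 46.9 ± 5.82 and Rnf213 at 46.5 ± 7.53. Samd9l peaked in cluster 5 at 47.3 ± 3.33 and was at 19.96 ± 3.85 in cluster 2. Trim30a and Slfn2 peaked in cluster 8, at 74.9 and 17.3 plain CPM over 2 PBS libraries. Of the cells of cluster 8, 63.7% are MPP-3, and Slfn2 was at 8.86 in cluster 0 and 8.51 in cluster 4. The lowest mean was in cluster 6 for 9 of the 10. Of its 177 cells 97.2% are labelled MPP-3, and the mean over 2 PBS libraries was 5.24 for Rnf213 and 6.34 for Rtp4. The class is the highest of 4 module scores, so a cell of another type would also be given 1 of these classes. Markers were not read by cluster, and whether the cells of clusters 6 and 8 are MPP-3 progenitors was not tested. Rnf213 in the AML libraries lay above every PBS library in 9 of 9 clusters, Dtx3l, Ifi44, Trim30a and Xaf1 in 7, Parp9, Parp14 and Slfn2 in 6, Rtp4 in 5 and Samd9l in 1. Of all genes with a mean of at least 5 plain CPM in a cluster, 10.4 to 22.2% lay above in this way in clusters 0 to 4 and 24.7 to 53.5% in clusters 5 to 8, which have a single AML library with 20 or more cells. As the contrast chose the genes, nothing is read from these counts.

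Cell by cell, the genes were sparse. After every cell was thinned to 2000 UMIs, which left out 205 shallower cells, all of them in PBS replicates 1 and 3, 48.1%, 50.3% and 52.8% of PBS cells and 37.8% and 40.1% of AML cells had a UMI of none of the 10. Cells with 4 or more of the genes were 1.95%, 1.39% and 1.25% in PBS, 1.59% in AML replicate 1 (95% Clopper-Pearson interval 0.795 to 2.82) and 4.47% in AML replicate 3 (3.85 to 5.16). Over all cells, the share with none was lower in both AML libraries, and the share with 4 or more was above PBS in AML replicate 3 and within the PBS range in AML replicate 1. In the HSC class it was 9.96% in AML replicate 3 (7.57 to 12.8) and 13.04% in AML replicate 1, which is 3 of 23 cells (2.78 to 33.6), against 1.40 to 3.16% in PBS. In MPP-3 it was 1.32% and 1.81% in AML replicates 1 and 3 and 1.16%, 0% and 1.20% in PBS, where the 0 is of 41 cells (0 to 8.60) and the AML replicate 3 interval, 1.04 to 2.93, holds both other PBS values. These intervals cover counting error only.

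Without thinning, the share of cells with none of the genes was 25.8%, 9.64% and 28.3% in PBS and 30.7% and 11.9% in AML, highest in the shallowest library and lowest in the deepest. As no cell type in this sort is known to lack all of these genes, a background share from free RNA could not be given.

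**Figure D5:**
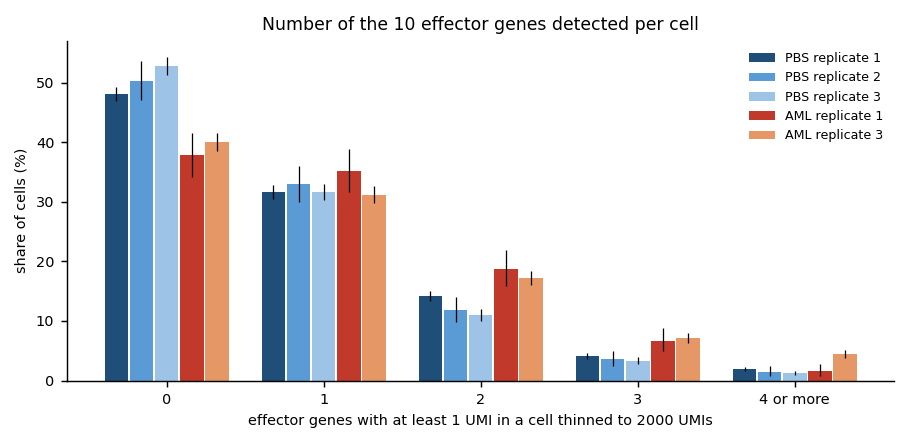
Share of cells in percent by the number of effector genes with at least 1 UMI, after thinning each cell to 2000 UMIs, for the 5 libraries of the cell table. Bars start at 0 and error bars are 95% Clopper-Pearson intervals. The AML bars are lowest at 0 genes and highest at 2 and 3 genes, and at 4 or more AML replicate 3 alone stands above PBS.

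How far the 10 genes varied together was described over the library-by-class sums. Over the 20 library-by-class sums, the Pearson r of a gene with the mean of the other 9 was highest for Ifi44 (0.916), Dtx3l (0.880) and Rnf213 (0.877) and lowest for Samd9l (0.518) and Slfn2 (0.314). Among 3935 other genes, those most like the mean of the 10 were Trim14 (r = 0.942), Fmnl2 (0.898), Tcf7l2 (0.884), Ptprj (0.879) and Etv6 (0.879). Trim14 is a TRIM relative of the set, and 1 of the top 30, Isg15, is on the list of other interferon-stimulated genes. The sums share libraries, depth and cell cycle composition, and these values are descriptions.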

How the data were processed

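The deposited UMI counts, whole numbers for each gene in each barcode, were made by the authors with Cell Ranger 7.0.1 (per the submitters' processing notes, which also name R 4.2.2, Seurat 4.3.0 and build GRCm38/mm10). The deposited cell table gives module scores, the percent of mitochondrial UMIs, phase, class and cluster per cell. The sources used here do not give the filter on cells, the treatment of doublets or the counting of introns, and 14 further columns were not used. No doublet caller was run here. Counts of kept cells were summed per library, and per library and class, phase or cluster with at least 20 cells. Kept cells hold 1945659 to 32123508 UMIs per library. Sums were tested with edgeR 4.0.16 in R 4.3.3 (TMM, filterByExpr, quasi-likelihood F test, two-sided, Benjamini-Hochberg over all genes, threshold 0.05), with library as a term for classes and phases. SE is the fitted log2 fold change divided by the square root of F. CPM given with a fit, over all cells or by class or phase, are TMM-scaled within that fit. Levels by cluster, of markers and in the comparison with AML replicate 2 are plain CPM. DESeq2 1.42.0, other scaling, no filter, thinning and left-out libraries were alternatives, and the fits were tested on simulated data. Loci are from GENCODE vM21. A library left as the only AML sample is assumed to vary like the PBS samples.

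The effector genes and the gene lists were chosen with earlier results of these data known. The text names the 10 genes throughout, up to 6 called genes of each further list by lowest p, Isg15 and Parp1 as references, and the 5 genes of highest r. The lists named Mx1, Mx2 and Rigi, which are not analysed here.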

Additional observations from a re-analysis of the deposited data

Results flagged for a closer look

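AML replicate 2 has no cells in the authors' table and entered no comparison, though the summed level of the effector genes over its barcodes was above the control libraries. Many of its barcodes are also listed by other libraries, 6900 of 17055 in all and 75 of the 106 used next. In the 106 barcodes that passed a minimum of 1000 genes and a maximum of 10% mitochondrial UMIs, the 10 genes summed to 712 plain CPM, on 218 UMIs. With the same filter PBS replicates 1 to 3 came to 404, 371 and 341 CPM, and AML replicates 1 and 3 to 562 and 532 CPM. Rnf213 was at 91.5 CPM, Trim30a at 199 CPM and Parp9 at 55.5 CPM. In all, 7 of the 10 genes lay above every PBS library, as did 41.4% of 9778 genes with a mean of at least 5 plain CPM over the 6 libraries, while 2 lay below (33.4%). With shares of that size among all genes, nothing is read from the counts of AML replicate 2. Dtx3l lay within the PBS range, Samd9l below it on 4 UMIs, and Slfn2 had 0 UMIs. In the 31 of these barcodes that no other library lists, an alternative chosen after seeing the data, the sum was 936 CPM on 64 UMIs. There 7 genes were again above and 2 below (54.8% and 35% of all genes), but not the same genes. Xaf1 went from above to below on 2 UMIs, Samd9l from below to above on 2 UMIs, Rtp4 lay within the PBS range and Dtx3l lay above it.

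Over all 17055 barcodes of AML replicate 2 the sum was 745 CPM, against 343 to 404 CPM in PBS, with 7 genes above (53.6% of all genes) and 1, Xaf1, below every PBS library (23.1%). Without shared barcodes it was 951 CPM, with 7 above (59%) and 1 below (26%). The median barcode there had 249 detected genes against 1659 to 2857 in PBS, so most of these barcodes are far shallower than a kept cell. Isg15 was at 356 CPM by the filter, and at 146 CPM on 10 UMIs without shared barcodes. Over all barcodes it was at 117 CPM, within the PBS range of 105 to 131 CPM, and without shared barcodes at 90.5 CPM, below it. Of the sort markers, Ly6a over all barcodes was at 102 CPM (63.9 without shared barcodes), below the 103 to 197 CPM of PBS, and Kit at 104 CPM (128), above the 83.3 to 88.3 CPM of PBS. By the filter Ly6a was at 150.3 and Kit at 111 CPM. Whether these barcodes are LSK cells like those of the other libraries was not tested.

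The AML difference varied between classes for 3 of the 37 other interferon-stimulated genes, against 0.872% of 12734 genes. That list was chosen with earlier results of these data known. The number of all genes called moved with the library left out, as given below, and these 3 calls were not followed under the alternatives. For Herc6 (edgeR adjusted p 9.79e-05) it was lower in MPP-3 than in the HSC class by 1.33 ± 0.177 on the log2 scale. For Isg20 (0.00791) it was lower by 1.18 ± 0.227, and for Ddx58 (0.0459) by 1.13 ± 0.261. Herc6 was at 70.9, 56.2 and 56.6 CPM in PBS and 122 and 127 CPM in AML in the HSC class, and at 38.9, 30.9 and 27.7 CPM and 19.6 and 26.1 CPM in MPP-3.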

How the results depend on the processing

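For the AML fold changes of the effector genes, 584 values under the alternatives moved by less than 1 SD of the libraries and 46 by more. Of the class and phase differences, 272 and 158 stayed on their side of the threshold in the same direction, 53 and 19 lost and 5 and 3 gained a call, and 0 that were called changed sign. The count of effector genes that differ between classes was 6 of 10 in G1 cells. Those lower in S were 4 in the HSC class, 2 in MPP-2 and 5 in MPP-3. Those whose AML difference varied between classes were 0, and 1 with no filter, with 0 to 1 over left-out libraries (1 without PBS replicate 2 or AML replicate 1). Over all genes that last count was 111, and 506 with no filter, 54 with cells of a clear class, and 29 (without PBS replicate 1) to 189 (without PBS replicate 2) over left-out libraries, with 50 without PBS replicate 3. The values for the effector genes are descriptions.

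Counts of other interferon-stimulated genes called higher in AML moved with the setting, and the cause was not tested. Over all cells (0 of 37) they were 2 with DESeq2, 4 with no filter, 2 with the filter on barcodes of 6 libraries (most of those of AML replicate 2 shared with another library), 1 in G1 cells and 0 to 2 over left-out libraries (2 without AML replicate 3). In the HSC class (7) they were 0 with DESeq2, 3 with cells of a clear class and 0 to 6 over left-out libraries. In MPP-2 (0) they were 2 with DESeq2, 1 with library size only, 3 with no filter and 1 with a clear class or without cells of shared barcodes. In MPP-3 (0) they were 2, 2 and 2 with DESeq2, library size only and no filter, 1 without clusters 5 to 8 and 0 to 1 over left-out libraries. In MPP-4 (1) they were 2 with library size only, 5 with no filter, 0 without cells of shared barcodes and 0 to 1 over left-out libraries.

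With the replicate number as a block these counts were 1 over all cells, 2 for HSC, 3 for MPP-4 and 1 each for MPP-3 and MPP-2. The groups share only numbers 1 and 3, nothing in the labels says that a number pairs libraries, and the difference between numbers correlated at r = -0.17 across 9720 genes. The AML fit in G1 cells, the phase fits within a class, leaving out shared barcodes and leaving out clusters 5 to 8 within a class were chosen after seeing the data. With 2 AML libraries, 1 of them of 693 cells, small AML differences could be missed, and the smallest detectable size is not given here.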
